A study of Rattus norvegicus with 20 samples.

Results

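Mesenteric arteries of ovariectomised rats given estradiol benzoate were compared with those of ovariectomised rats given the vehicle. The arrays were chosen by their treatment label, 3 for estradiol benzoate and 4 for vehicle, out of 20 arrays in the series. The features were the probes that carry 1 gene symbol in the platform's annotation, 16865 of 35129. Of these, 13324 probes for 10225 genes were bright enough to test. For 10191 of those genes a probe was measured on every array, and a gene in a list is represented by its brightest such probe.

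The series measured RNA on single-colour CodeLink whole rat genome arrays, with 1 array per rat and no pooling. All groups were Sprague Dawley females ovariectomised at 4 weeks of age, left for 2 weeks and then gavaged daily for 3 weeks, so that the vehicle rats also lacked ovaries. They were 9 weeks old at collection. Estradiol benzoate was given at 0.15 mg/kg in 20% 2-hydroxypropyl-β-cyclodextrin, and the vehicle rats received the cyclodextrin alone. Ethinyl estradiol and equilin, each 3 arrays and also 0.15 mg/kg, serve below as the related compounds. The arterial tree was cleared of veins and fat before RNA extraction, and whole vessels were used, so fewer cells of a type and less RNA per cell cannot be told apart.

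Estradiol benzoate is an ester of estradiol that is cleaved in the body to release the hormone. Estradiol binds the nuclear receptors encoded by Esr1 and Esr2, which act on genes through estrogen response elements or through other transcription factors, and it also acts through the membrane receptor encoded by Gper1. In arteries, estrogens are known for acting on endothelial nitric oxide and prostacyclin production, on the renin-angiotensin system and on smooth muscle growth and tone. Gavage takes the compound through the gut wall and liver before it reaches the arteries.

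Every level below is a log2 value of the intensity plus a small offset of 0.103, relative to the median of the tested probes of that array, which is 0. The smooth muscle myosin heavy chain Myh11 lay between 5.68 and 6.79 in the vehicle arrays and between 6.20 and 6.50 under estradiol benzoate, and the 16 arterial endothelium markers had summed linear levels of 98.1 to 123 and of 97.8 to 121. Such sums grow with the number of genes in a list, so they do not rank the cell types. Despite the clearing of fat, the 19 adipocyte markers had the highest summed level of the cell type lists. It was 288 to 449 in the vehicle arrays and 322 to 428 under estradiol benzoate, so the groups overlapped. Pancreatic acinar markers, 16 genes, were also present: their summed level was 50.4, 7.71, 3.73 and 14.3 in vehicle rats 1 to 4 and 7.10, 3.11 and 2.87 under estradiol benzoate. Deposited array medians ran from 1.0007 to 1.0612 over the series. Vehicle array 1 shares its higher median (1.05) and the level of a class of unnamed probes with all 9 estrogen arrays, while vehicle arrays 2 to 4 share theirs with the tamoxifen and raloxifene arrays. The labels do not say what separates these 2 sets. Reading the probe number as a row and a column, some arrays held dim stretches, in which a probe's neighbours had a median more than 0.5 below their levels over all arrays. These took in 103 tested values on estradiol benzoate array 1, 57 on array 2 and none on array 3. Vehicle arrays 1 to 4 had 194, 183, 0 and 0. The 3 ethinyl estradiol arrays had 210, 275 and 1092 (8.2% on array 3), and the 3 equilin arrays 58, 7 and 524. The most, 1520 (11.4%), were on raloxifene array 3.

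No gene passed the test between estradiol benzoate and vehicle. In a limma model fitted over all 20 arrays, 0 of 13324 probes (0%) had an adjusted p under 0.05, and the lowest adjusted p was 0.111. At an unadjusted p under 0.05 there were 672 probes (5.04%), 469 higher and 203 lower under estradiol benzoate. The 3 estradiol benzoate arrays lay wholly above the 4 vehicle arrays for 919 probes (6.9%) and wholly below for 479 (3.6%). With 1 probe per gene, 343 genes were higher (3.37%) and 160 lower (1.57%) at an unadjusted p under 0.05, and the shares quoted for gene groups below are read against these.

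The middle of the distribution was narrow. The median difference was 0.02, and the central 98% of probes lay between -0.80 and 0.73. The 95% confidence interval of a single probe reached a median of 0.52 to each side. Differences of more than 1 in either direction numbered 109 probes (0.818%). Higher values were mostly on dim probes: 418 of the 6683 probes below the array median were higher and 82 lower, against 51 higher and 121 lower of the 6641 brighter probes. The median difference was 0.10 in the first class and -0.04 in the second.

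**Figure D1:**
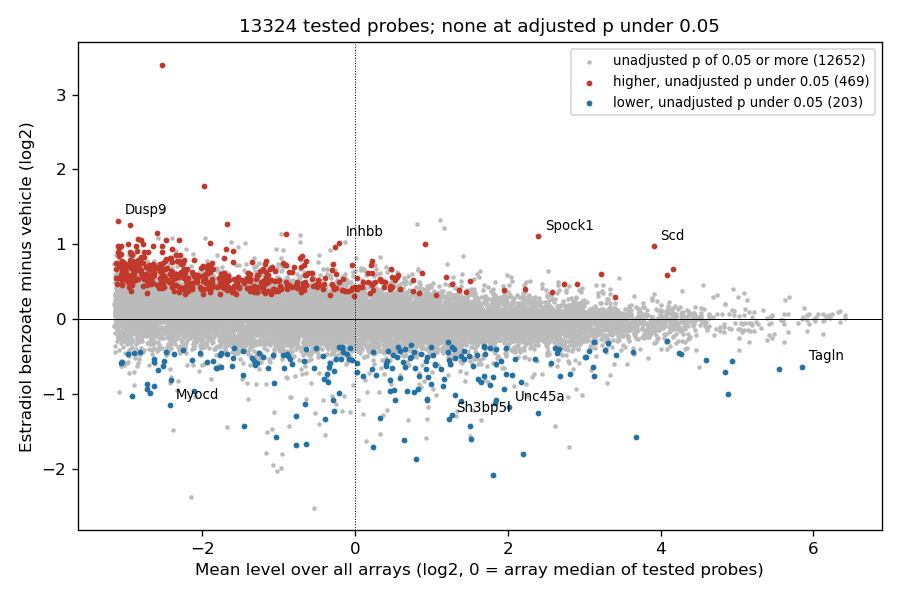
Difference between the estradiol benzoate and vehicle means (vertical axis, log2) against the mean level over all arrays (horizontal axis, log2, 0 is the array median of tested probes) for the 13324 tested probes. Red points (469) and blue points (203) have an unadjusted p under 0.05, and the red ones lie mostly left of 0, where 418 of them are.

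The split between higher and lower depended on how the arrays were scaled. Against 469 higher and 203 lower as given above, quantile normalisation gave 247 and 300, centring on all probes gave 162 and 715, and no centring gave 254 and 487. Centring on all probes moves every difference by -0.16 and turns the median difference to -0.14. The directions below are relative to the median named probe. Of 90 named probes, 10 changed sign with the scaling, and those for Ace, Apln, Cbr1, Col1a1, Esr1, Igf1, Myh11, Nnat, Postn and the dimmer Me1 probe are given without a direction against vehicle. Of 37 list medians, 19 changed sign, and those below that did are the estrogen, nitric oxide, renin-angiotensin, sterol, fibrillar collagen and oxidative phosphorylation lists.

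The lowest adjusted p belonged to Inhbb, Dusp9 and Spock1, all higher under estradiol benzoate. Inhbb encodes the beta B subunit shared by inhibin B and activin B. Its level was -0.56, -0.06, -0.66 and -0.70 in vehicle rats 1 to 4 and 0.57, 0.39 and 0.63 in the 3 estradiol benzoate rats. The groups did not overlap, and only vehicle rat 2 stood near the array median. The difference was 1.02 ± 0.18 (SE), a 2.03-fold difference with a 95% interval of 0.65 to 1.39 (adjusted p = 0.111, limma). Its promoter is shown because Inhbb stands at the head of the comparison and differs from ethinyl estradiol as well, from 250 bases before to 50 after the start on the minus strand of GRCr8 at chr13:33089324-33089623 (RefSeq). It was searched on both strands for GGTCA, the 5-letter core of the estrogen response element (TGACC on the other strand), which would be in capitals.

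Inhbb: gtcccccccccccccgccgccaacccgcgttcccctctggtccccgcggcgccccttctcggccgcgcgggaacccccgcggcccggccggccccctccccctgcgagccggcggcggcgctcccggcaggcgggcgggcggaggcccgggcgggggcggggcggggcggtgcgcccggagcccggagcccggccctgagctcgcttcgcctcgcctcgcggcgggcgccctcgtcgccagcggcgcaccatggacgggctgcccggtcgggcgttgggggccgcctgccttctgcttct

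This window holds neither GGTCA nor TGACC, whereas 38.2% of the 8483 tested genes with such a window hold at least 1. The full palindrome GGTCANNNTGACC was in 0 of the 8483 windows. The motifs were chosen with the expression values known, and a match or its absence describes only these letters.

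Dusp9, a phosphatase that inactivates MAP kinases, was dim in all rats. It stood at -3.60, -3.79, -4.54 and -3.78 under vehicle and at -2.51, -2.71 and -2.63 under estradiol benzoate. The difference was 1.31 ± 0.22 (95% interval 0.85 to 1.77, adjusted p = 0.111, limma), and at such low levels the offset makes a fold change too small. Spock1, which encodes the matrix proteoglycan testican-1, was bright: 1.20, 2.08, 1.80 and 2.02 under vehicle against 2.82, 3.05 and 2.78. The 3 treated rats lay above all 4 controls, vehicle rat 1 being the lowest, and the difference was 1.11 ± 0.20 (adjusted p = 0.118, limma).

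Bcl6, a transcriptional repressor, showed the same separation on both of its probes. The brighter probe gave -1.01, -0.88, -1.01 and -0.83 under vehicle and 0.19, -0.31 and 0.20 under estradiol benzoate, and its difference was 0.96 ± 0.23 (adjusted p = 0.374, limma). The other probe gave a difference of 1.14 ± 0.26. Tp63, a transcription factor of the p53 family, lay between -3.95 and -3.07 under vehicle and between -2.39 and -2.21 under estradiol benzoate. Smaller differences without overlap were found for Hps1 (0.74 ± 0.16), which acts in the making of lysosome-related organelles, for Adcyap1 (0.59 ± 0.15), which encodes the vasodilator peptide PACAP, and for the tyrosine phosphatase gene Ptpn18 (0.59 ± 0.19). Hps1 and Ptpn18 rest on 1 of 2 probes, since their other probes gave -0.24 ± 0.19 and 0.05 ± 0.25. None of these passed the test.

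**Figure D2:**
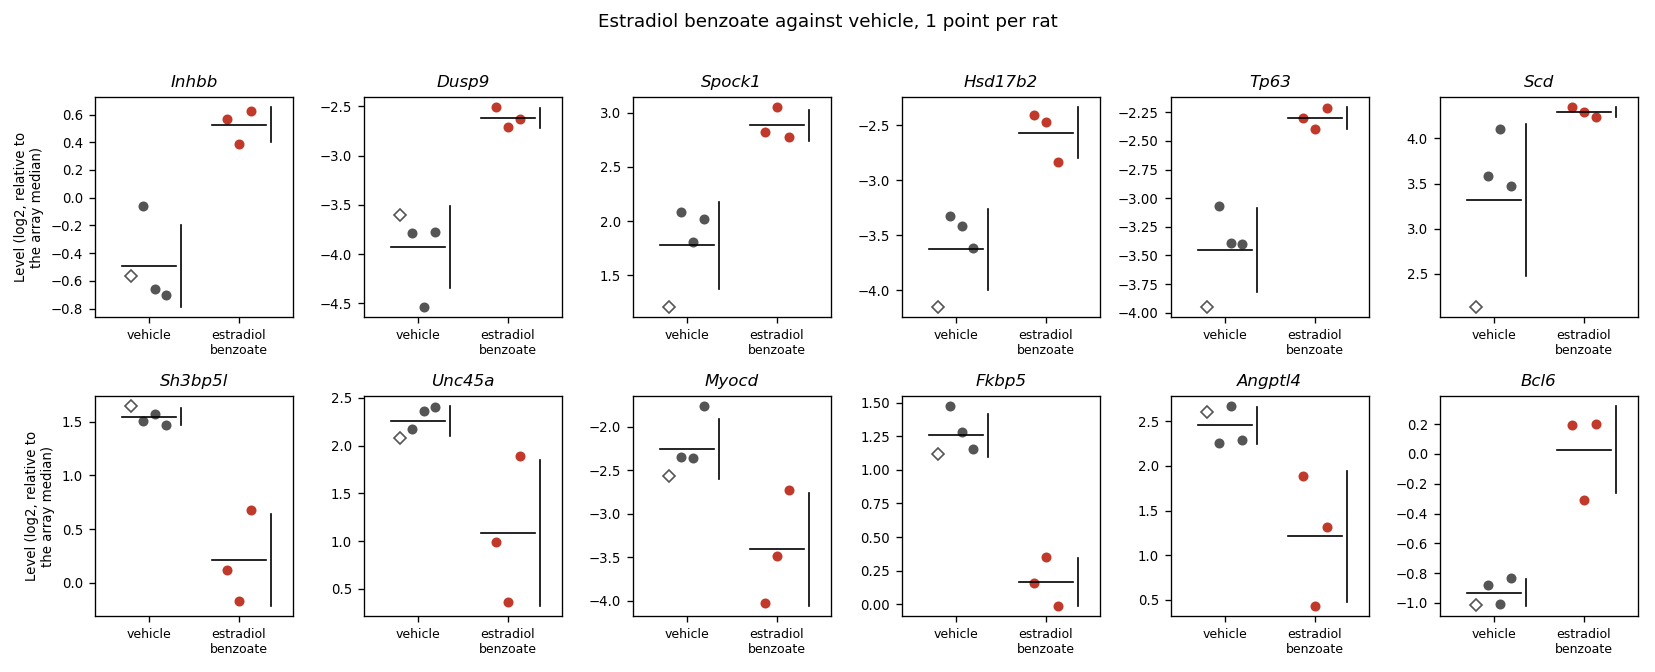
Levels of 12 genes in each rat (vertical axes, log2 relative to the array median) under vehicle (grey, 4 rats, vehicle rat 1 as an open diamond) and estradiol benzoate (red, 3 rats). Horizontal lines are means and vertical bars 1 SD. The groups do not overlap in any panel, yet no gene passed the adjusted threshold. Vehicle rat 1 is the lowest control for Spock1, Hsd17b2, Tp63 and Scd, and also for Unc45a, Myocd and Fkbp5, which are lower under estradiol benzoate.

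Of the estrogen receptor and estrogen-responsive genes, 8 of 27 tested were higher and 1 was lower at an unadjusted p under 0.05, and 20 of 27 had a positive difference. The median difference was 0.12, against 0.00 over all genes, but centring on all probes turned it to -0.04 and left 3 higher and 2 lower. The count of higher genes was 3 with quantile normalisation, 3 with no centring, 3 with the array set as a block, 6 without vehicle rat 1 and 8 with the values in dim stretches left out. None of the 27 passed the adjusted threshold. The list was chosen with earlier results of these data known, so its counts are not a test of an estrogen response.

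Both nuclear receptors were dim. Esr1 stood between -2.75 and -1.97 under vehicle and between -2.59 and -2.14 under estradiol benzoate, so the groups overlapped, with a 95% interval of the difference of -0.46 to 0.62. Esr2 was -1.42, -1.43, -1.21 and -1.17 under vehicle and -1.07, -0.92 and -0.92 under estradiol benzoate. Those values do not overlap, and the difference was 0.34 ± 0.16 (adjusted p = 0.979, limma). Gper1 overlapped between groups, with a difference of -0.29 ± 0.28.

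Pgr, the progesterone receptor gene and a textbook target of estrogen receptor alpha, was -2.38, -2.13, -2.55 and -2.43 under vehicle and -1.86, -1.99 and -1.99 under estradiol benzoate. All treated rats lay above all controls, with a difference of 0.43 ± 0.18 (adjusted p = 0.922, limma). Oxtr, the oxytocin receptor gene, which estrogen induces in rat uterus, was -2.12, -2.07, -2.44 and -2.87 against -1.73, -1.97 and -1.87. Here too the groups did not overlap, although vehicle rat 2 and treated rat 2 stood close together, and the difference was 0.52 ± 0.25. The Oxtr promoter (RefSeq, GRCr8, chr4:147170450-147170749, minus strand) is shown as a member of the list that holds the core motif more than 1 time, as 9.09% of windows do. Capitals mark the GGTCA and TGACC cores and also a match to TGACNNNGC, the core of the antioxidant response element, which was searched on both strands and found in 14.5% of windows.

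Oxtr: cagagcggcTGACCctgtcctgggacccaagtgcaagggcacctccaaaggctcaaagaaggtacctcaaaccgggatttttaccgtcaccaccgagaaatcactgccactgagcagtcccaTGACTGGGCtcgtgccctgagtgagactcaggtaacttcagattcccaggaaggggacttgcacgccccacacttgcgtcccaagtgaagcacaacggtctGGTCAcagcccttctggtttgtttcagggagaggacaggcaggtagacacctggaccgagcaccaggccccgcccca

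In the list, 8 of the 21 members with a window held a core, a share near the 38.2% of all windows. Hsd17b2, whose enzyme oxidises estradiol to the weaker estrone, was -4.16, -3.33, -3.42 and -3.61 under vehicle and -2.40, -2.47 and -2.83 under estradiol benzoate. The treated rats were higher by 1.06 ± 0.20 (adjusted p = 0.176, limma). The remaining higher members, named after their values were seen, were Calb2 (0.74), which encodes the calcium-binding protein calretinin, the transcriptional co-regulator gene Cited2 (0.47) and the receptor tyrosine kinase gene Ret (0.38, and -0.05 on its other probe). Cyp1b1, outside this list and encoding an enzyme that hydroxylates estradiol, was 0.49 ± 0.14 higher, with levels of -0.30 to 0.08 under vehicle and 0.39 to 0.41 under estradiol benzoate.

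**Figure D3:**
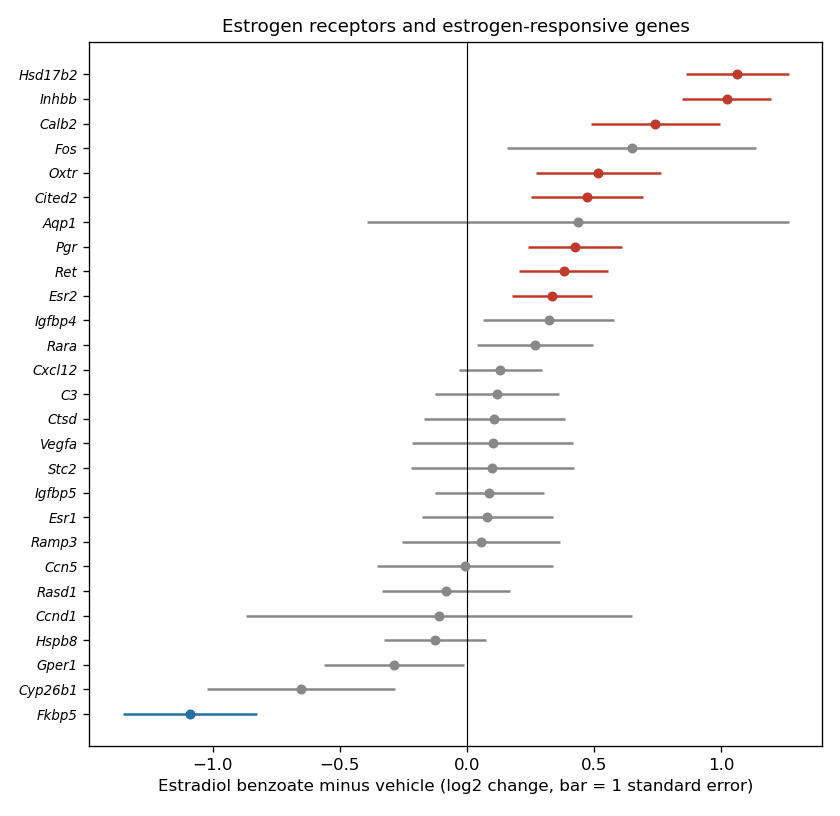
Difference between estradiol benzoate and vehicle (horizontal axis, log2, bars are 1 SE) for the 27 tested genes of the estrogen list. Red points mark the 8 genes higher and the blue point the 1 gene lower (Fkbp5) at an unadjusted p under 0.05.

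The one lower member of the estrogen list was Fkbp5, a co-chaperone of steroid receptors that glucocorticoids and progestins induce. It stood at 1.12, 1.47, 1.28 and 1.15 under vehicle and at 0.15, 0.35 and -0.01 under estradiol benzoate. The groups did not overlap, and the difference was -1.09 ± 0.26 (95% interval -1.64 to -0.54, adjusted p = 0.394, limma). The second Fkbp5 probe gave -0.85 ± 0.36, also without overlap. Of the 19 steroid metabolism and glucocorticoid response genes, 1 was higher and 1 lower, Hsd17b2 and Fkbp5, with a median of -0.06.

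Other bright genes were lower without overlap. Angptl4, which encodes a secreted inhibitor of lipoprotein lipase, was 2.60, 2.26, 2.67 and 2.29 under vehicle and 1.88, 0.43 and 1.32 under estradiol benzoate. The treated rats were spread widely, rat 1 being nearest to the controls, and the difference was -1.25 ± 0.36 (adjusted p = 0.635, limma). Errfi1, a feedback inhibitor of the EGF receptor, ranged from 2.89 to 3.68 against 2.02 to 2.75 (-0.76 ± 0.24). Crem, a transcription factor of the cyclic AMP response, was 0.40 to 0.56 against -0.41 to -0.14 (-0.74 ± 0.24), and Sh2b2, an adaptor of the insulin receptor, differed by -0.96 ± 0.26.

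Several of the lowest differences lay in or near the dim stretches. Of the 203 lower probes, 16 (7.88%) had an estradiol benzoate array in such a stretch, against 160 of all 13324 tested probes (1.2%) and 2 of the 469 higher ones (0.426%). Among the 31 lower by more than 1 at an unadjusted p under 0.05, 14 did. Klf15, a Krüppel-like transcription factor, was 1.09, 1.04, 0.77 and 0.80 under vehicle and -3.45, 0.29 and 0.35 under estradiol benzoate. The first treated rat carried most of that difference, its neighbouring probes having a median of -2.52 on that array, and leaving that value out moved the difference from -1.86 to -0.60 ± 0.24. Col4a1 moved likewise from -1.57 to -0.16 (its other probe gave -0.13) and Rgs2 from -0.89 to -0.06, both for treated rat 1. No source used here states that the probe number gives a position on the slide, and the part of the dim stretches in other values was not tested.

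Sh3bp5l, Unc45a and one probe of Ada have probe numbers in the same range of rows, but their neighbours were not below that limit on the vehicle or estradiol benzoate arrays. Sh3bp5l was 1.64, 1.51, 1.57 and 1.46 under vehicle and 0.12, -0.17 and 0.68 under estradiol benzoate, while its neighbours stood at 0.05, -0.05 and 0.02 on the treated arrays. The difference was -1.33 ± 0.27 (adjusted p = 0.197, limma). Among the vehicle and estrogen arrays, only its value on ethinyl estradiol array 1 lay in a dim stretch, with neighbours at -0.59. With the values in dim stretches left out, the difference of this probe from vehicle stayed at -1.33. The spread was smaller (SE 0.16) and the adjusted p was 0.00358 (limma). Dusp9 (0.0222) and Inhbb (0.0492) then also passed, making 3 calls of 13202 probes. This alternative was chosen after seeing the data.

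Unc45a, a chaperone of myosin, was 2.08, 2.18, 2.37 and 2.41 under vehicle and 0.99, 0.36 and 1.89 under estradiol benzoate. Treated rat 3 lay close to the controls and the other 2 well below, and the neighbouring probes were at -0.21, -0.22 and 0.00 on those arrays. The difference was -1.18 ± 0.25 (adjusted p = 0.27, limma), and the second Unc45a probe gave -0.41 ± 0.30. For Ada, the adenosine deaminase gene, one probe gave -0.96 ± 0.21 and the other -0.37 ± 0.14, so the size was not shared between the probes of either gene.

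Contractile genes of smooth muscle were lower in part. Of 25 tested, 3 were lower and 1 was higher, 6 lay wholly below and 1 wholly above the controls, and 6 of 25 had a positive difference. The median was -0.19, and it was negative under all 4 scalings, from -0.35 to -0.19. Among the 3 lower is the Unc45a probe described above, and the second Unc45a probe gave -0.41 ± 0.30. Myocd encodes myocardin, the coactivator of serum response factor that drives smooth muscle genes. Its level was -2.56, -2.34, -2.36 and -1.76 under vehicle and -4.02, -3.48 and -2.72 under estradiol benzoate.

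All 3 treated rats were below the 4 controls for Myocd, rat 3 by the least, with a difference of -1.15 ± 0.27 (95% interval -1.71 to -0.59, adjusted p = 0.311, limma). Tagln, the actin-binding protein transgelin, was 6.24, 6.24, 6.09 and 5.72 against 5.82, 5.64 and 4.86. Vehicle rat 4 and treated rat 1 overlapped, and the difference was -0.63 ± 0.20. Srf, the serum response factor gene, was higher by 0.41 ± 0.19 on its brighter probe and differed by 0.08 ± 0.16 on the other. The brighter probes of Myh11 and Mylk, the light chain kinase gene, overlapped between groups, with intervals of -0.66 to 0.69 and -0.59 to 1.91. The dimmer Myh11 probe gave -0.70 ± 0.28 (unadjusted p = 0.0209, limma), and the dimmer Mylk probe differed by -0.02 ± 0.35. Acta2 had a difference of 0.65 with an interval of -0.04 to 1.35.

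The 8 vascular smooth muscle markers, all of which are also in the contractile list, had a median of -0.36, with 1 lower and none higher. Their summed linear level was 237, 221, 195 and 175 in vehicle rats 1 to 4 and 186, 173 and 148 under estradiol benzoate, so the groups overlapped. Of the 10 lymphatic and venous endothelium markers, 2 were higher (Selp and Sele), with a median of 0.37, and none was without vehicle rat 1. Their summed level, 42.5 to 63.5 under vehicle and 58.5 to 60.3 under estradiol benzoate, overlapped. The 16 arterial endothelium markers and the 21 macrophage and dendritic markers had no member at an unadjusted p under 0.05.

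The genes of vasodilator and vasoconstrictor synthesis moved little. Of 20 nitric oxide, prostanoid and endothelin genes, 1 was higher (Nos1, neuronal nitric oxide synthase, 0.72 ± 0.24) and none lower, and the median was 0.01. Nos3, the endothelial nitric oxide synthase, was 3.58, 3.26, 3.28 and 2.94 under vehicle and 2.35, 3.44 and 3.05 under estradiol benzoate. The groups overlapped, treated rat 1 being the lowest of the 7, and the interval of the difference was -0.80 to 0.16. Ptgis, the prostacyclin synthase gene, had an interval of -0.74 to 0.07, Ptgs2 one of -0.23 to 1.29 and Edn1, encoding endothelin-1, one of -0.28 to 1.31.

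Among 24 vasoactive receptor genes, 2 were higher, 1 lower and the median was 0.20. The serotonin receptor gene Htr2b was -2.84, -2.50, -3.05 and -2.86 under vehicle and -2.27, -2.10 and -2.26 under estradiol benzoate, without overlap (0.60 ± 0.19). Adora2b, an adenosine receptor gene, was 0.43 ± 0.16 higher, and the purinergic receptor gene P2rx1 had a difference of -0.51. Of 11 renin-angiotensin, apelin and kinin genes, 1 was higher: Mas1, the receptor of angiotensin 1-7, with 0.55 ± 0.25. That count was 0 with quantile normalisation, centring on all probes or no centring, and 0 without vehicle rat 1. Agtr1a and the brighter Ace probe overlapped between groups, with intervals of -0.60 to 0.32 and -0.65 to 0.59, as did Agt (-0.26 ± 0.60). The dimmer Ace probe gave 0.58 ± 0.28 (unadjusted p = 0.0521, limma).

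Fatty acid and triglyceride synthesis genes had a median of 0.18, with 2 of 22 higher and none lower. Scd, the stearoyl-CoA desaturase, was 2.13, 3.58, 4.10 and 3.47 under vehicle and 4.34, 4.29 and 4.24 under estradiol benzoate. The treated rats were nearly equal and lay just above vehicle rat 3, and vehicle rat 1 was far below the rest. The difference was 0.97 ± 0.30 (adjusted p = 0.706, limma), and 0.57 without vehicle rat 1. Acaca, the acetyl-CoA carboxylase gene, was 0.67 ± 0.26 higher, again without overlap. Fasn, the fatty acid synthase gene, moved from -0.64 to 0.82 when the value of treated rat 1 in a dim stretch was left out. The 18 sterol synthesis genes had a median of 0.12 and no member at an unadjusted p under 0.05. Adipocyte markers were bright on these arrays, and the part of fat cells in the lipid gene values here and below was not tested.

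Mitosis genes were split. Of 29 tested, 4 were lower and 3 higher, 8 of 29 had a positive difference and the median was -0.24. The proliferation marker Mki67 was -1.11, -0.68, -0.60 and -0.87 under vehicle and -1.64, -1.33 and -1.39 under estradiol benzoate. Top2a, DNA topoisomerase II alpha, was -0.81, -0.37, -0.49 and -0.75 against -1.40, -1.03 and -1.28. Both were without overlap, with differences of -0.64 ± 0.26 and -0.63 ± 0.19 (adjusted p = 0.876 and 0.7, limma). Foxm1, a transcription factor of the same cell cycle phase had probes that disagreed in sign. The brighter one, which stands for the gene in the list, was -0.97 to -0.56 under vehicle and -0.37 to -0.18 under estradiol benzoate (0.48 ± 0.13), and the other gave -0.46 ± 0.24. The count of lower genes was 11 with quantile normalisation, 12 with centring on all probes and 0 with the array set as a block.

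**Figure D4:**
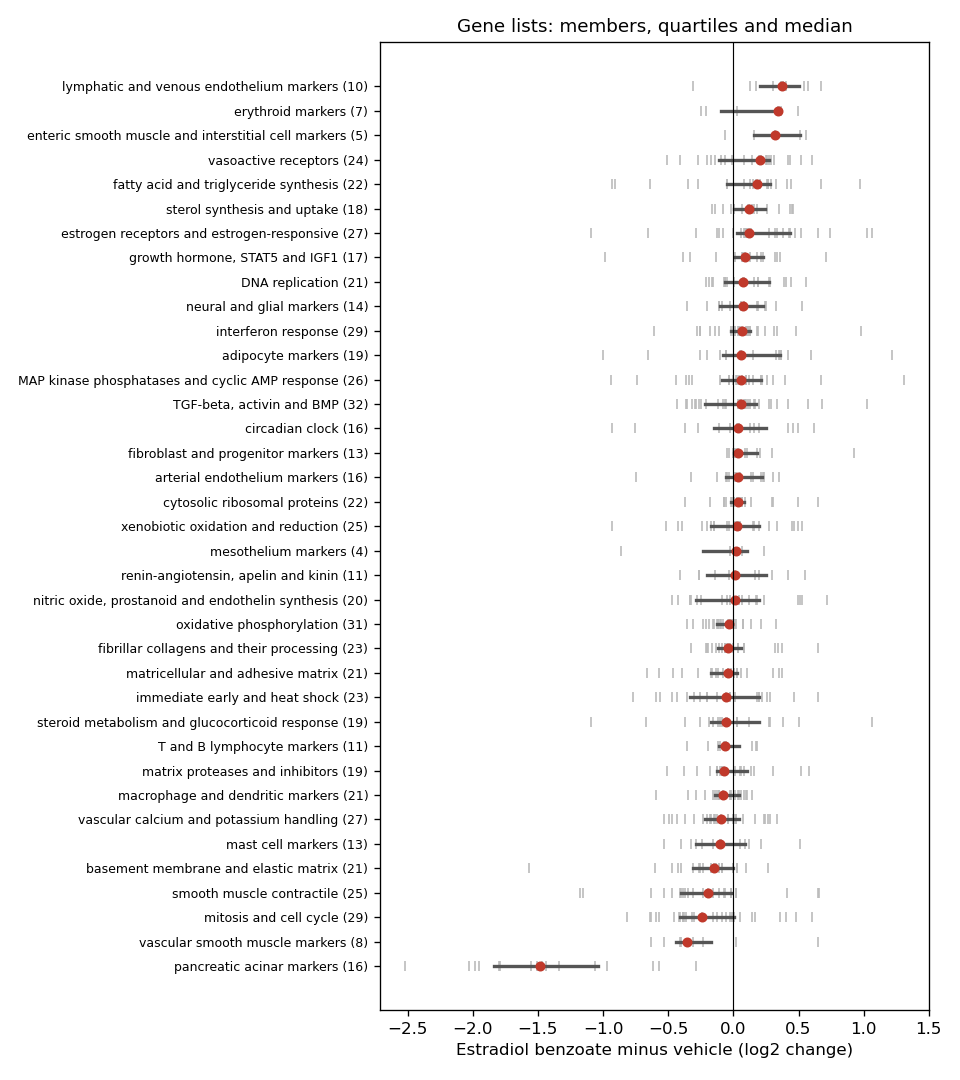
Difference between estradiol benzoate and vehicle (horizontal axis, log2) for the members (grey ticks), quartiles (dark bars) and median (red point) of 37 gene lists, with the number of tested genes in brackets. The 16 pancreatic acinar markers lie apart at a median of -1.48, the 8 vascular smooth muscle markers at -0.36 and the 10 lymphatic and venous endothelium markers at 0.37.

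Matrix genes showed little. None of 23 fibrillar collagen genes and none of 19 matrix protease genes was past an unadjusted p of 0.05, with medians of -0.04 and -0.07, and the intervals for Col1a1, Postn and Fn1 were -0.55 to 0.46, -0.43 to 0.34 and -0.45 to 0.36. Of 21 matricellular genes, 2 were lower, among them Cpz, a carboxypeptidase that binds Wnt proteins (-0.46 ± 0.18). Of 23 immediate early and heat shock genes, 3 were lower and 1 higher. The lower ones were the chaperone genes Cryab (-0.77 ± 0.31), Hsp90ab1 (-0.47 ± 0.19) and Hspb1 (-0.56, named after its value was seen). None of 31 oxidative phosphorylation genes was past that p. Of 17 growth hormone, STAT5 and IGF1 genes, 1 was higher and 1 lower. Prlr, the prolactin receptor gene, was 0.71 ± 0.28 higher without overlap. Cish was lower on its brightest probe (-0.98 ± 0.41), and its other probes gave 0.23 ± 0.33 and 0.16 ± 0.29. Igf1, a growth factor gene, differed by 0.01 ± 0.48 with overlapping groups. Pancreatic acinar markers had none at an unadjusted p under 0.05, although all 16 had a negative difference, and vehicle rat 1 was far above the other controls.

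Within the set of arrays that holds vehicle array 1, the comparison rests on a single control rat. With the array set as a block, 28 probes (0.21%) had an adjusted p under 0.05 (limma), all higher under estradiol benzoate. Vehicle rat 1 was the lowest of the 4 controls for 28 of 28, and 25 of the 28 were below the array median. Scd, Spock1, Hsd17b2 and Selp were among them. Pikfyve, a lipid kinase gene named after its values were seen, was -2.10 in vehicle rat 1, 0.43, 0.14 and 0.59 in vehicle rats 2 to 4 and 0.56, 0.66 and 0.59 under estradiol benzoate. The values of vehicle rats 2 to 4 overlapped those of the treated rats there. With 1 control rat in the set, that rat and the treatment cannot be told apart.

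Ethinyl estradiol and equilin were given at the same dose by weight, and all 9 estrogen arrays belong to the same set. Ethinyl estradiol carries an ethinyl group on the D ring of estradiol, and equilin is a ketone with an additional double bond in the B ring. Both pairs were tested in the same limma model, without using the vehicle arrays in the difference. Estradiol benzoate differed from ethinyl estradiol at 57 probes for 53 genes (0.428%), 25 higher and 32 lower. It differed from equilin at 3 probes for 2 genes (0.0225%), all lower. With only the compared groups in the model, no probe was called against ethinyl estradiol (lowest adjusted p = 0.0667, limma, with 519 higher and 1412 lower at an unadjusted p under 0.05) and 1 against equilin. With p-values adjusted over both pairs together the counts were 33 and 5.

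For the 57 probes, the arrays of both compounds never overlapped, which adds no support because the probes were picked by this same difference. At 38 of the 57 the estradiol benzoate arrays overlapped the vehicle arrays. Over all tested probes, 6.9% lay wholly above vehicle and 3.6% wholly below, so overlap was less common among the 57. An unadjusted p under 0.05 against vehicle was reached by 20 of the 57, beside 5.04% of all tested probes (limma). Quantile normalisation also called 57 probes, 32 higher and 25 lower, of which 42 were among the original calls. Where no difference was called, the 95% interval reached a median of 0.56 to each side for either pair, so the compounds were not shown to act alike at those genes. Against equilin the count was 0 when any 1 array of either group was left out.

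Me1, the NADP-dependent malic enzyme that supplies reducing power for fatty acid synthesis, differed from both compounds. Its brighter probe was 2.02, 2.21, 2.24 and 2.27 under vehicle and 2.40, 2.62 and 2.33 under estradiol benzoate, but 3.92, 4.68 and 4.71 under ethinyl estradiol and 3.90, 4.44 and 3.63 under equilin. The estradiol benzoate rats lay just above the controls and below every other estrogen rat. The difference was -1.99 ± 0.25 from ethinyl estradiol (adjusted p = 0.0011) and -1.54 ± 0.25 from equilin (adjusted p = 0.0421, limma). The second probe gave -1.90 and -1.92.

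Cbr1, a carbonyl reductase of xenobiotic metabolism, behaved likewise at the level of single rats. It was 2.71, 2.69, 3.03 and 2.39 under vehicle, 2.94, 2.61 and 2.70 under estradiol benzoate, 4.63, 4.47 and 5.08 under ethinyl estradiol and 4.46, 4.49 and 4.62 under equilin. The first 2 groups overlapped and every rat of the other 2 lay above them. Estradiol benzoate differed from ethinyl estradiol by -1.98 ± 0.29 and from equilin by -1.77 ± 0.29 (adjusted p = 0.00279 and 0.0421, limma). The promoters of both genes are shown since they are the only genes that differed from both compounds, Me1 at chr8:96540195-96540494 (minus strand) and Cbr1 at chr11:46346155-46346454 (plus strand), RefSeq, GRCr8. Capitals mark the TGACNNNGC match in Me1 and the TGACC core in Cbr1.
Me1: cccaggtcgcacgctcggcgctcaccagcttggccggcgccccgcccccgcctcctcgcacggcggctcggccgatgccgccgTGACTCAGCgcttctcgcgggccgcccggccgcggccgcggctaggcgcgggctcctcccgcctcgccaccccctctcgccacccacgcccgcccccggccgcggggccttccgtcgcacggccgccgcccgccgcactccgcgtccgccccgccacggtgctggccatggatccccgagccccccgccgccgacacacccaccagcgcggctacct
Cbr1: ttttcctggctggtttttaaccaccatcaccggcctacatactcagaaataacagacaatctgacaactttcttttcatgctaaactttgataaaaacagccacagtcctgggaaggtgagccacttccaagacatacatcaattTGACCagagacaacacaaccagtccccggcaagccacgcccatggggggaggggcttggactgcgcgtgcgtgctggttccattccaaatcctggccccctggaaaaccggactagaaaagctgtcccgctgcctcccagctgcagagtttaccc

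Of the 53 genes that differed from ethinyl estradiol, 38 had a window, 13 with an estrogen core and 8 with the antioxidant core, beside 38.2% and 14.5% of all windows. Fatty acid and triglyceride synthesis genes were lower than under ethinyl estradiol by a median of -0.82 and lower than under equilin by -0.75, against -0.04 and -0.01 over all genes, and 2 and 1 of the 22 passed the test. Thrsp, a regulator of lipid synthesis, was 5.06 to 5.62 under vehicle, 5.41 to 5.59 under estradiol benzoate, 6.36 to 6.94 under ethinyl estradiol and 6.10 to 6.56 under equilin. Its estradiol benzoate rats lay within the vehicle range and below every ethinyl estradiol rat (-1.09 ± 0.21, adjusted p = 0.0224, limma). Elovl6, a fatty acid elongase gene, differed from ethinyl estradiol by -2.07 on one probe (adjusted p = 0.0262, limma) and by -1.34 on the other, which did not pass.

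**Figure D5:**
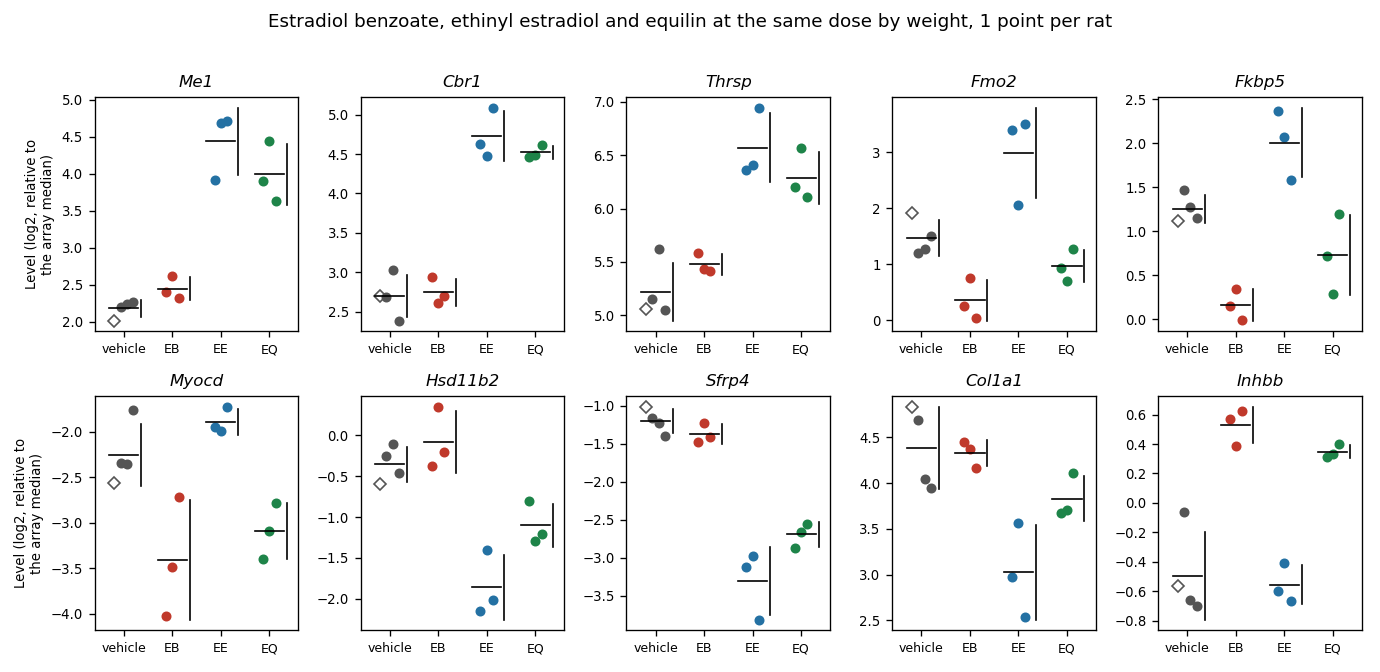
Levels of 10 genes in each rat (vertical axes, log2 relative to the array median) under vehicle (grey, open diamond for vehicle rat 1), estradiol benzoate (EB, red), ethinyl estradiol (EE, blue) and equilin (EQ, green), with the mean as a line and 1 SD as a bar. In the Cbr1 and Thrsp panels the estradiol benzoate rats overlap the vehicle rats, in the Me1 panel they sit just above them, and in all 3 they sit below both other estrogens. In the Inhbb panel the ethinyl estradiol rats sit with the vehicle rats.

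A group of genes was lower under estradiol benzoate than under ethinyl estradiol and lower than vehicle in values. Fmo2, a flavin-containing monooxygenase, was 1.92, 1.20, 1.27 and 1.50 under vehicle, 0.25, 0.75 and 0.05 under estradiol benzoate and 3.39, 2.06 and 3.51 under ethinyl estradiol. On this probe the 3 groups did not overlap, and estradiol benzoate differed from ethinyl estradiol by -2.64 ± 0.35 (adjusted p = 0.00159, limma). The second Fmo2 probe gave -2.61, and there estradiol benzoate overlapped vehicle (difference -0.93). Fkbp5 reached 2.36, 2.08 and 1.59 under ethinyl estradiol, so its difference was -1.84 ± 0.28 (adjusted p = 0.00467, limma). Myocd (-1.52), Errfi1 (-1.38), Unc45a (-1.47) and Hsp90ab1 (-1.02) also passed, all with estradiol benzoate below both vehicle and ethinyl estradiol on these probes. The second Unc45a probe gave -0.60 and did not pass (adjusted p = 0.578, limma). Rgs2, a regulator of G protein signalling, differed by -2.35, and by -1.51 without the value of treated rat 1 in a dim stretch.

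Other genes overlapped the vehicle range under estradiol benzoate and were lower under ethinyl estradiol. Hsd11b2, whose enzyme inactivates glucocorticoids, was -0.59, -0.25, -0.11 and -0.46 under vehicle, -0.37, 0.35 and -0.21 under estradiol benzoate and -2.15, -1.40 and -2.02 under ethinyl estradiol. Estradiol benzoate overlapped vehicle and lay above every ethinyl estradiol rat (1.78 ± 0.25, adjusted p = 0.00203, limma). Sfrp4, a secreted Wnt antagonist (1.93 ± 0.32), and the matrix genes Col1a1 and Postn (1.06 ± 0.20) were likewise higher than under ethinyl estradiol. For Col1a1 the difference was 1.31 ± 0.26 on one probe and 1.21 ± 0.19 on the other (adjusted p = 0.00673, limma). The first gave 1.06 without ethinyl estradiol rat 3, whose neighbouring probes were at -0.89, and then did not pass (adjusted p = 0.0711, limma). Nnat, an imprinted gene for a small membrane protein, differed by 1.35 ± 0.19. Apln, the apelin gene, differed by 2.04, and by 1.18 without ethinyl estradiol rat 3, whose neighbouring probes were at -0.82. Its receptor gene Aplnr differed by 1.79 ± 0.36 on one probe and by 0.28 on the other, which did not pass (adjusted p = 0.824, limma).

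Inhbb was the one gene of the estrogen list that was higher under estradiol benzoate than under ethinyl estradiol. It stood at -0.59, -0.40 and -0.66 under ethinyl estradiol, within the vehicle range, and at 0.31, 0.33 and 0.40 under equilin. Estradiol benzoate exceeded ethinyl estradiol by 1.08 ± 0.19 (95% interval 0.69 to 1.48, adjusted p = 0.0123, limma) and equilin by 0.18, which did not pass. Oxtr was -1.34, -1.09 and -0.98 under equilin, above every estradiol benzoate rat, with a difference of -0.72 that did not pass either. Pgr and Esr2 differed from neither compound at the adjusted threshold.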

How the data were processed

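The authors deposited 1 table of probe intensities for 20 arrays, on a linear scale after background subtraction and with array medians close to 1, as the values show; how the background was estimated and the scaling set was not given in the sources used here. Per the labels and the submitters' design text, the scanner was a GenePix 4000B run by GenePix Pro 5.0, and CodeLink Expression Analysis, Acuity 3.1 and GeneSpring 7.1 are named, without saying which made the deposited intensities. The annotation supplied with the platform gives 1 gene symbol for 16865 of 35129 probes, several for 165 and none for 18099, and 1 symbol was updated.

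From these intensities, values at or below 0 were set to 0, and log2 was taken after adding 0.103, an offset set at 0.1 of the table's median. Left out were 40 probes with over 1 missing value in some group and, by mean, the dimmest 30% of the 35089 others, and each array was centred on the median of its tested probes with 1 symbol. No array printed for a named gene lacked a value. The 6 group means were fitted in limma 3.58.1 (R 4.3.3) with lmFit and eBayes with a variance trend, and p-values were adjusted over 13324 probes by the Benjamini-Hochberg method. The procedure was tested on simulated data. Figures were drawn with matplotlib 3.10.9 under Python 3.11.15, and tables were handled with pandas 2.3.3. The number of arrays limits the precision. Each sample is an individual rat.

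Members and gene lists were chosen with earlier results of these data known. Genes named are those past the adjusted threshold, the 10 highest and 10 lowest at unadjusted p under 0.01 without overlap and with the higher group at or above the array median, up to 2 list members in each direction, a fixed set of 45 genes of which 43 could be tested, up to 6 in each direction against each other estrogen, and up to 5 in each direction past unadjusted p under 0.01 with and without the array set as a block. Exceptions are stated. Same-numbered vehicle and estradiol benzoate arrays correlated at 0.0689, -0.0741 and 0.0858 in their deviations from group means, so the numbers were not taken to pair the rats. Alternatives covered scaling, offset, dim-probe filter, probes tested, groups fitted, array weights, blocks, single arrays left out and, chosen after seeing the data, dim stretches of an array (5 rows and 3 columns to each side). The tamoxifen and raloxifene groups enter only the shared spread.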

Additional observations from a re-analysis of the deposited data

Results flagged for a closer look

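Selp, the P-selectin gene of venous endothelium, was -2.30 in vehicle rat 1, far below the -1.31 to -1.20 of the other 3 controls. The summed level of the 4 mesothelium markers was 2.67 in the same rat, above the 2.05 to 2.15 of the others. These are 2 of 103 genes and cell type sums checked for a control standing apart, and chance picks out about 1 in 20 such groups. The regularly spaced unnamed probes, which enter no comparison above, had a median of 0.37 over the estradiol benzoate arrays. In the vehicle arrays their medians ran from -3.16 to -0.04, the highest being vehicle rat 1, which belongs to the same array set as the estrogen arrays.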

How the results depend on the processing

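For estradiol benzoate against vehicle the count of called probes was 0, with 672 at an unadjusted p under 0.05. It was 246 when unnamed probes were tested too (19 with 1 symbol), 242 with array weights, 28 with the array set as a block, 1 without raloxifene array 3 (Dusp9), 3 with the values in dim stretches left out (chosen after seeing the data) and 0 to 1 when 1 rat was left out (Unc45a without estradiol benzoate rat 3, Inhbb without vehicle rat 2). With the replicate number as a block (replicate block) it was 0, with 436 higher and 167 lower at an unadjusted p under 0.05, and the other alternatives gave 0. Against ethinyl estradiol, 57 probes were called, and 335 with array weights, 110 with vehicle and the 3 estrogens only, 242 without raloxifene array 3, 87 with the values in dim stretches left out, 33 with adjustment over both pairs, 47 with the replicate block, 19 to 48 without 1 rat, and 0 with only the compared groups (519 higher and 1412 lower at an unadjusted p under 0.05). The 19 came without estradiol benzoate rat 2. Of the 57 calls, 55 remained with dim stretches left out. Against equilin, 3 probes were called, and 5 with quantile normalisation, without raloxifene array 3 or with adjustment over both pairs, 2029 with array weights, 1 without the dim-probe filter or with only the compared groups, 0 with all probes or all but the regularly spaced class, 3 with the replicate block, and 0 without any 1 rat of either group. The cause of these shifts was not tested. Of 2574 alternative values for 105 single-gene results, 2184 stayed within the spread or on the same side of the threshold, 254 moved, 50 passed the threshold, 86 lost it and 0 changed sign after being called. Of 888 values for 37 list medians, 174 moved by more than 1 SD. Signal over background limits dim genes such as Dusp9.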

Other observations

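The probes with the highest positive differences at an unadjusted p under 0.05 were Padi1 and Glycam1, both outside the gene lists and named after their values were seen. Padi1, a peptidylarginine deiminase gene, was -2.97, -3.16, -3.03 and -3.16 in the vehicle rats and 6.59, -2.84 and -2.79 under estradiol benzoate. A single rat therefore carried the difference of 3.40 ± 1.41 (adjusted p = 0.9, limma), the other 2 treated rats lying just above the controls. None of the 6 other estrogen rats was above -2.46. Glycam1, which encodes a ligand of L-selectin made by high endothelial venules and mammary gland, was -2.87, -1.66, -2.81 and -2.16 under vehicle and 0.20, -2.12 and 0.14 under estradiol benzoate. Treated rat 2 lay among the controls. Under ethinyl estradiol it was 1.08, -2.79 and -1.95 and between -3.05 and 0.43 over the 3 equilin rats, so 1 or 2 rats of each estrogen group stood near or above the array median and no vehicle rat did.

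The spread within groups was smallest under estradiol benzoate. The median SD of a probe was 0.15 over the 3 estradiol benzoate rats, 0.25 over the 4 vehicle rats, 0.24 under ethinyl estradiol and 0.17 under equilin. Vehicle rats 2 to 4, which share an array set, had a median SD of 0.24.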
